A study of Mus musculus with 16 samples.

Results

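The 9 genes described here encode inhibitory receptors of immune cells and ligands that engage them: *Cd33*, *Cd22*, *Siglec1*, *Cd200r1*, *Sirpa*, *Lair1* and *Pirb* (7 receptors) with *Cd200* and *Cd47* (2 ligands). They were taken by symbol from a list of such genes, and all 9 were among the 18167 genes measured. No member was lost to the authors' filter against genes without signal in 8 or more mice.

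The study compared spinal cord RNA of mice that express human profilin 1 (PFN1) carrying the ALS-linked G118V change with that of mice expressing the unchanged human protein. Whole spinal cords of 16 mice, labelled male, gave 1 library each, and the mouse was the unit of every comparison. The 4 groups were wild-type young (WY, 3 mice, 50 days old), mutant young (MY, 3 mice, 50 days old), wild-type old (WO, 5 mice) and mutant old (MO, 5 mice). The old mutants were at the end stage of disease and the young mutants were pre-symptomatic.

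Both genotypes were C57BL/6N mice with a human *PFN1* transgene driven by the *Prnp* promoter, line 838 for G118V and line 850 for the wild-type protein. Each genotype was thus 1 transgenic line, so the change in the protein and the line that carries it cannot be told apart, and no group lacked a transgene. The MO mice were 198, 190, 245, 224 and 175 days old (MO1 to MO5). WO1, WO2 and WO3 were 190 days old, and WO4 and WO5 were 294 days old. All WY and MY libraries belonged to batch 1, whereas MO4, MO5, WO4 and WO5 belonged to batch 2.

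All levels below are log2(1 + FPKM), where FPKM is the number of fragments scaled by transcript length and library size, after correction for batch. A fold change is the second group minus the first on that scale, and the added 1 compresses it for genes of low FPKM. A gene was called as having risen or fallen when limma gave a Benjamini-Hochberg false discovery rate (FDR) of at most 0.05 over all 18167 genes and the fold change was at least 1.5 (0.585 on the log2 scale). How many reads lie behind each value is unknown, and the spread among mice was the only measure of precision.

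The library of MO5 went against its male label. *Xist*, the RNA of the inactive X chromosome, was at 3.21 in MO5 and between -0.36 and 0.37 in the remaining 15. *Ddx3y*, on the Y chromosome, was at 1.95 in MO5 against 4.06 to 4.74. The number of members called and most of their fold changes from WO to MO are therefore also given without MO5. Most other results are given with MO5 only. *Prnp*, whose promoter drives the transgene, was between 10.53 and 11.07 in the 8 mutant mice and between 8.52 and 8.82 in the 8 wild-type mice. The authors found only insignificant changes of *Prnp* by quantitative PCR. They propose that transgene RNA aligned to *Prnp* could be the cause of the difference.

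The tissue label was checked against marker genes. All 8 *Hox* genes of the spinal cord list were measured, led by *Hoxb8* with group means between 5.65 and 5.86, and the forebrain genes *Emx1* and *Tbr1* had group means of at most 0.07. The other forebrain gene measured, *Neurod6*, was higher, with group means between 1.52 and 1.57. Neurons (*Snap25*), astrocytes (*Gfap*) and oligodendrocytes (*Mbp*) were all represented, although *Mbp* varied widely among WO mice (SD 3.47). The samples were bulk tissue, so for every gene below more cells of a type and more RNA per cell cannot be told apart.

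Inhibitory receptors of this kind set a threshold on the activation of myeloid cells and lymphocytes. Several of them carry an immunoreceptor tyrosine-based inhibitory motif (ITIM), which on phosphorylation binds the phosphatases SHP-1, SHP-2 or SHIP-1 and so dampens signals from activating receptors that use an ITAM adaptor such as TYROBP. In the central nervous system, CD200 and CD47 on neurons and other cells are known to restrain microglia through CD200R1 and SIRPα, and siglecs do so on binding sialic acid.

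In end-stage mutant cord, all 7 receptors were higher than in old wild-type cord and both ligands were not. The 7 receptors rose (7 of 9 members, against 4.08% of all genes) and 0 members fell in the limma test (against 0.517% of all genes), although *Cd47* was lower with an unadjusted p of 0.00063. The median fold change of the 9 members was 0.79 and that of all genes 0.00035. In each of the 7 receptors every MO mouse was above each of the 11 other mice, a pattern that 7.58% of all genes showed.

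*Cd33* encodes a siglec, a receptor of myeloid cells that binds sialic acid. Its level was 2.92, 2.57, 2.74, 2.10 and 2.40 in MO1 to MO5 and 1.31, 1.34, 1.59, 1.32 and 1.26 in WO1 to WO5. It was 1.29, 1.29 and 1.23 in MY1 to MY3 and 1.26, 1.32 and 1.45 in WY1 to WY3. The lowest MO mouse (MO4) was above the highest of the others (WO3), and the WO, MY and WY mice overlapped. *Cd33* rose by 1.18 from WO to MO (SE 0.135, FDR 0.000132), with 1.33 within batch 1 and 0.96 within batch 2. Here and below, a value within batch 2 compares MO4 and MO5 with WO4 and WO5, which were older than both. Such a value rests on 2 mice in each group and includes MO5, whose sex markers went against its label.

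*Cd22* encodes an ITIM-bearing siglec best known from B cells and also made by microglia. Its level was 1.73, 1.62, 2.00, 1.09 and 1.61 in MO1 to MO5, and 0.16, 0.13, 0.15, -0.11 and -0.07 in WO1 to WO5. It was 0.18, 0.20 and 0.12 in MY1 to MY3 and 0.19, 0.16 and 0.15 in WY1 to WY3. Outside MO the gene was near 0 in every mouse, and the batch correction left WO4 and WO5 below 0. *Cd22* rose by 1.56 (SE 0.14, FDR 3.65e-05), the largest fold change of the 9 members on this scale, and the median FPKM was 0.0979 in WO and 2.08 in MO. Of 4 B cell markers measured, 0 rose or fell in limma, with 1 higher and 2 lower at an unadjusted p under 0.05. The 1 was *Cd79b*, higher by 0.45 (FDR 0.000373), under the fold minimum, with every MO mouse above all others, and the 2 were *Cd79a* (-0.17, FDR 0.117) and *Cr2* (-0.08, FDR 0.0677). The FPKM summed over the 4 was 0.766, 0.644, 0.539, 0.995 and 0.764 in MO1 to MO5, with *Cd79b* the most abundant, and 0.578, 0.605, 0.797, 0.253 and 0.537 in WO1 to WO5. It lay between 0.296 and 0.616 in the young mice, and *Pax5*, the B cell lineage factor, had group means between 0.04 and 0.06.

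*Siglec1* encodes sialoadhesin, a macrophage siglec whose short tail has no ITIM. Its level was 1.16, 0.74, 1.57, 0.70 and 1.16 in MO1 to MO5, and 0.09, 0.10, 0.07, -0.14 and -0.12 in WO1 to WO5. It was 0.08, 0.12 and 0.10 in MY1 to MY3 and 0.08, 0.09 and 0.09 in WY1 to WY3. The SD among MO mice was 0.36, beside 0.33 for *Cd22*, and again no other mouse reached the lowest MO mouse. *Siglec1* rose by 1.07 (SE 0.15, FDR 0.00046), with 1.07 within batch 1 and 1.06 within batch 2.

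Because *Siglec1* also marks macrophages at the borders of the central nervous system, markers of those cells were set beside it. Of 7 such markers, 1 rose from WO to MO (*Ms4a7*, by 1.90, FDR 0.000706), and 3 more were higher at an unadjusted p under 0.05. *Ms4a7* was at or below 0 in 1 mouse. Their summed FPKM was 5.75, 6.45, 10.3, 4.14 and 6.54 in MO1 to MO5 and between 1.46 and 2.91 in the 11 other mice, with *Pf4* the highest in mean log2 level over the 16 mice. In MO *Ms4a7* was the highest (mean 1.99, against 1.07 for *Pf4*), and *Pf4* was not called (FDR 0.147). Their part in the rise of *Siglec1* was not tested.

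*Cd200r1* encodes the receptor for CD200, which signals through DOK adaptors and not through an ITIM. Its level was 0.65, 0.94, 0.98, 0.74 and 0.58 in MO1 to MO5 and 0.10, 0.32, 0.12, 0.07 and 0.01 in WO1 to WO5. It was 0.19, 0.07 and 0.15 in MY1 to MY3 and 0.26, 0.15 and 0.13 in WY1 to WY3. WO2 was the highest of the 11 other mice, still below MO5, the lowest MO mouse. The gene rose by 0.65 (SE 0.09, FDR 0.000313). After quantile normalization the fold change was 0.58, just under the fold minimum.

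*Sirpa* encodes SIRPα, the ITIM-bearing receptor for CD47 on myeloid cells, which neurons also express. Its level was 6.04, 6.24, 6.41, 5.99 and 6.23 in MO1 to MO5 and 5.63, 5.60, 5.52, 5.53 and 5.49 in WO1 to WO5. It was 5.58, 5.60 and 5.60 in MY1 to MY3 and 5.73, 5.62 and 5.60 in WY1 to WY3. This was the most abundant member in all 4 groups, and MO4, the lowest MO mouse, was above WY1, the highest of the rest. *Sirpa* rose by 0.63 (SE 0.07, FDR 0.000155), the smallest fold change of the 7 receptors on this scale, with a median FPKM of 45.2 in WO and 74.1 in MO. Without MO3 its fold change was 0.58 (FDR 0.00022), below the fold minimum. The *Sirpb1* genes, which resemble *Sirpa* in their outer domains, were not analysed here, and how reads shared with them were counted is not given in the sources used here, so the level of *Sirpa* is uncertain to that extent.

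*Lair1* encodes an ITIM-bearing receptor for collagens and for complement C1q. Its level was 3.15, 3.30, 3.36, 3.02 and 2.96 in MO1 to MO5 and 2.25, 2.28, 2.12, 1.92 and 1.95 in WO1 to WO5. It was 2.26, 2.30 and 2.07 in MY1 to MY3 and 2.15, 2.06 and 1.98 in WY1 to WY3. The gap between the lowest MO mouse (MO5) and the highest other mouse (MY2) was wide relative to the spread within groups (SD 0.18 in MO and 0.12 in MY). *Lair1* rose by 1.05 (SE 0.10, FDR 3.97e-05), with 1.06 within batch 1 and 1.05 within batch 2.

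*Pirb* encodes the paired immunoglobulin-like receptor B, an ITIM-bearing receptor for MHC class I that also binds myelin inhibitors of axon growth. Its level was 1.28, 0.87, 1.46, 0.74 and 1.01 in MO1 to MO5 and 0.43, 0.33, 0.33, 0.15 and 0.18 in WO1 to WO5. It was 0.09, 0.37 and 0.19 in MY1 to MY3 and 0.17, 0.13 and 0.21 in WY1 to WY3. MO4 was the lowest MO mouse and WO1 the highest of the others. *Pirb* rose by 0.79 (SE 0.13, FDR 0.00108), with 0.84 within batch 1 and 0.71 within batch 2. It has near-identical neighbours, the *Pira* genes, and any reads shared with them would make its level uncertain.

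The MO mice differed among themselves. MO3, at 245 days the oldest of them, was the highest in 6 of the 7 receptors, and MO1 was the highest for *Cd33*. MO4 was the lowest in 5 and MO5 in the other 2 (*Cd200r1* and *Lair1*), and both belong to batch 2. The order of the others varied, and over the 5 MO mice r between receptors ran from 0.115 (*Siglec1* and *Cd200r1*) to 0.940 (*Siglec1* and *Pirb*). Averaged over the 7 receptors, the level was 2.42, 2.33, 2.64, 2.06 and 2.28 in MO1 to MO5.

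**Figure D1:**
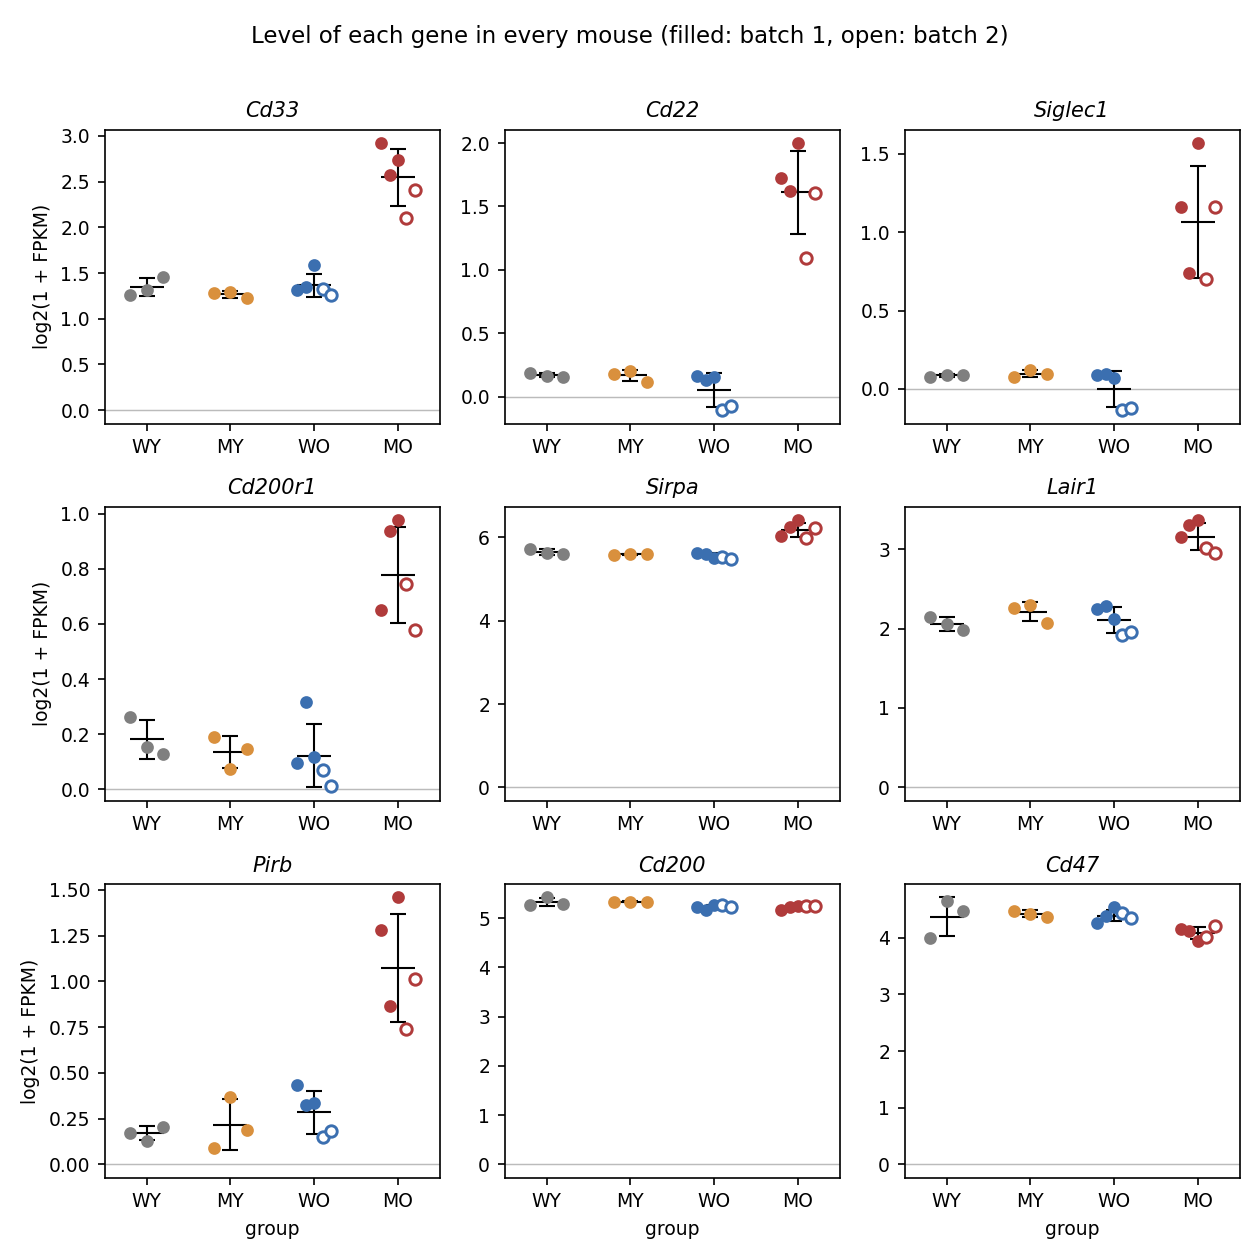
Level of each of the 9 genes as log2(1 + FPKM) in every mouse by group, with the receptors before *Cd200* and *Cd47*. Filled points are batch 1, open points batch 2, long bars group means and whiskers 1 SD. In each of the 7 receptors the 5 MO mice lie above all other mice, and for *Cd47* the MO mice lie below the WO mice.

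The ligands behaved differently. *Cd200* encodes a membrane glycoprotein carried mainly by neurons and endothelium. Its level was 5.17, 5.23, 5.25, 5.25 and 5.24 in MO1 to MO5, 5.22, 5.16, 5.26, 5.27 and 5.23 in WO1 to WO5, 5.33, 5.33 and 5.34 in MY1 to MY3, and 5.26, 5.42 and 5.28 in WY1 to WY3. The MO and WO mice overlapped over nearly their whole range. The fold change from WO to MO was -0.0019 with a 95% confidence interval from -0.08 to 0.07 (FDR 0.979), so a change of more than 0.08 in either direction lies outside the interval. Of 5 endothelium markers 0 were called in limma from WO to MO, and all 5 were lower at an unadjusted p under 0.05, with a median of -0.47. Their part in the level of *Cd200* was not tested.

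*Cd47* encodes the ligand of SIRPα, known as a signal that protects cells from being engulfed. Its level was 4.16, 4.12, 3.94, 4.01 and 4.20 in MO1 to MO5 and 4.26, 4.39, 4.53, 4.43 and 4.34 in WO1 to WO5. It was 4.48, 4.42 and 4.36 in MY1 to MY3 and 3.98, 4.64 and 4.47 in WY1 to WY3. Every MO mouse was below every WO and MY mouse, while WY1 lay among the MO mice. The fold change from WO to MO was -0.30 (SE 0.06, FDR 0.00483), with -0.32 within batch 1 and -0.28 within batch 2. This passed the FDR threshold, as did 12.9% of all genes in the lower direction, and was smaller than the 1.5-fold minimum. The median FPKM was 19.9 in WO and 16.4 in MO.

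Neuron markers were set beside *Cd47*. Of 7 neuron markers, 2 fell from WO to MO (*Nefl* and *Nefm*), and the FPKM summed over the 7 was 4236.6 ± 259 (SD, n = 5) in WO and 3016.5 ± 228 (SD, n = 5) in MO, with *Snap25* the most abundant and none at or below 0. Not all 7 moved, since *Syt1* was at 0.04 (FDR 0.61) and *Stmn2* at -0.03 (FDR 0.75). In the mice singly the sum was 2924.9, 3101.7, 2814.1, 3375.1 and 2866.5 in MO1 to MO5, 4612.0, 3946.0, 4108.1, 4146.1 and 4370.7 in WO1 to WO5, and between 3618.7 and 4144.6 in the young mice. Their part in the lower level of *Cd47* was not tested.

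Against young mutant mice, the end-stage mutants gave the same 7 receptors. From MY to MO, 7 of 9 members rose (against 4.11% of all genes) and 0 fell in limma (against 0.787%), with 2 lower at an unadjusted p under 0.05. WO vs. MO and MY vs. MO share the MO mice, so the values are set side by side and are not independent. *Cd33* rose by 1.28 (WO to MO 1.18), *Cd22* by 1.44 (1.56), *Siglec1* by 0.97 (1.07) and *Cd200r1* by 0.64 (0.65). *Sirpa* rose by 0.59 (0.63), *Lair1* by 0.95 (1.05) and *Pirb* by 0.86 (0.79). FDR values for these 7 lay between 0.000566 (*Lair1*) and 0.00613 (*Siglec1*). With limma's treat, which tests against a fold change of 1.2, 4 members rose, as did 640 of all 18167 genes. *Siglec1* (FDR 0.0515), *Sirpa* (FDR 0.0663) and *Pirb* (FDR 0.0607) then missed the threshold.

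*Sirpa* was close to the fold minimum from MY to MO (SE 0.09, FDR 0.00236). It fell short of it without MO2 (0.57), MO3 (0.53), MO5 (0.58) or MY1 (0.58) and after quantile normalization (0.58), as did *Cd200r1* after quantile normalization (0.56). The fold change of *Cd47* from MY to MO was -0.33 (SE 0.06, FDR 0.00696), below the fold minimum, and 12.5% of all genes were lower with an FDR of at most 0.05. For *Cd200* it was -0.11 (95% confidence interval -0.19 to -0.03, FDR 0.0579), and every MO mouse was below every MY mouse. Every WO mouse was below every MY mouse as well (highest WO 5.27, lowest MY 5.33). From WY to WO *Cd200* was at -0.09 (FDR 0.467). The share of all genes with such a separation is not given here.

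From WY to WO and from WY to MY no member was called. Very few of all genes were, so 0 of 9 is near the shares of all genes. From WY to WO 0 of 9 members were called by limma (against 0.253% of all genes), 0 had an unadjusted p under 0.05, and the fold changes lay between -0.11 (*Cd22*) and 0.11 (*Pirb*) with a lowest FDR of 0.467. Within batch 1, to which all WY mice belong, *Pirb* was at 0.194 (SE 0.0532, FDR 0.198), *Lair1* at 0.155 (FDR 0.423) and *Cd22* at -0.0182 (FDR 0.933), and 0 members were called. With 0.1 in place of 1 added to FPKM, the values from WY to WO were wider, and still not called. *Cd22* was then at -0.52 (FDR 0.552), *Cd200r1* at -0.38 (FDR 0.712) and *Pirb* at 0.46 (FDR 0.519). From WY to MY, likewise, 0 of 9 were called (against 0.0055% of all genes) and 0 had an unadjusted p under 0.05. These fold changes ran from -0.08 (*Cd33*) to 0.15 (*Lair1*), with a lowest FDR of 0.713, and with 0.1 added from -0.24 (*Cd200r1*) to 0.19 (*Lair1*). The widest interval from WY to MY was that of *Cd47* (-0.34 to 0.45), where WY1 was low.

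The difference between genotypes in the effect of age was itself tested, as (MO - MY) - (WO - WY) over the 16 mice. It was higher in mutants for the same 7 receptors (7 of 9 members, against 4.65% of all genes). The difference was 1.26 for *Cd33*, 1.56 for *Cd22*, 1.06 for *Siglec1*, 0.70 for *Cd200r1*, 0.68 for *Sirpa*, 0.90 for *Lair1* and 0.74 for *Pirb*, with FDR values from 0.000125 (*Cd22*) to 0.0128 (*Pirb*). For *Cd47* it was -0.36 (unadjusted p 0.0408, FDR 0.139) and for *Cd200* -0.01 (FDR 0.921), and neither was called. The value for *Cd47* depended on the WY mice, at -0.166 without WY1 and -0.495 without WY2. With treat *Pirb* was not called in this test (FDR 0.203).

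Without MO5, whose sex markers went against its label, 7 members rose from WO to MO (742 of 18167 genes did so). The fold changes were 1.22 for *Cd33*, 1.56 for *Cd22*, 1.04 for *Siglec1*, 0.70 for *Cd200r1*, 0.62 for *Sirpa*, 1.10 for *Lair1* and 0.80 for *Pirb*, and -0.33 for *Cd47*. From MY to MO 6 members rose without MO5 (of all genes 746), since *Sirpa* was then below the fold minimum, and 7 members were higher in the test of the age effect (of all genes 849).

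The scale mattered for the receptors of low abundance. With 0.1 in place of 1 added to FPKM, the fold change from WO to MO was 3.77 for *Cd22*, 3.12 for *Siglec1*, 2.18 for *Cd200r1* and 1.93 for *Pirb*. For *Cd22* and *Siglec1* the values of WO4 and WO5 were below 0 and were set to an FPKM of 0 here, so 2 of the 5 WO values are a floor. It was 1.56 for *Cd33*, 1.24 for *Lair1* and 0.64 for *Sirpa*. The order of the receptors by fold change thus differed between the scales, with *Lair1* ahead of *Cd200r1* and *Pirb* on the first and behind them on the second.

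**Figure D2:**
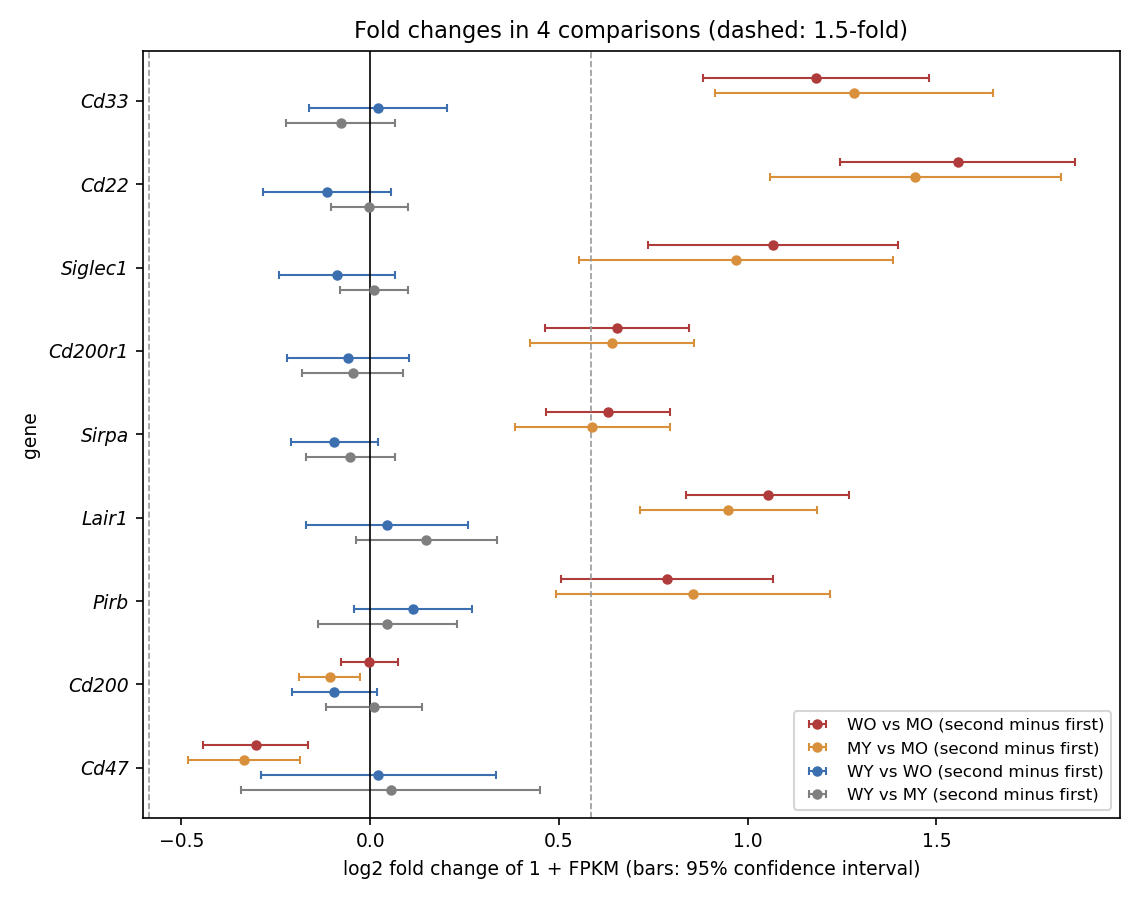
Log2 fold change of 1 + FPKM for each gene in 4 comparisons, second group minus first, with 95% confidence intervals as bars and the 1.5-fold minimum as dashed lines. The 7 receptors lie to the right of 0.585 in WO vs. MO and MY vs. MO, and all 9 genes lie within 0.15 of 0 in WY vs. WO and WY vs. MY.

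FPKM is a level per length, so the members can be ordered by abundance. Over the 16 mice the mean log2(1 + FPKM) was 5.78 for *Sirpa*, 5.26 for *Cd200*, 4.30 for *Cd47*, 2.45 for *Lair1*, 1.71 for *Cd33*, 0.58 for *Cd22*, 0.50 for *Pirb*, 0.37 for *Siglec1* and 0.34 for *Cd200r1*. *Sirpa* was at percentile 91.1 of all genes and *Cd200r1* at percentile 15.1. In WO mice *Cd22* (0.05 ± 0.13, SD, n = 5), *Siglec1* (-0.00052 ± 0.12) and *Cd200r1* (0.12 ± 0.12) overlapped among mice. Within each WO mouse, however, *Siglec1* was the lowest of these genes. In MO mice *Pirb* (1.07 ± 0.30, SD, n = 5) and *Siglec1* (1.07 ± 0.36) overlapped, and neither was the higher in every mouse. The order of the 4 lowest genes differed between groups, as *Cd22* led them only through MO: in WO *Pirb* (0.28) and *Cd200r1* were above it. The 5 upper genes kept their order in the means of WO and MO.

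Each receptor was also set against its ligand within the same mouse. *Cd200r1* minus *Cd200* was -4.52, -4.29, -4.27, -4.51 and -4.66 in MO1 to MO5 and -5.12, -4.84, -5.14, -5.20 and -5.22 in WO1 to WO5. In MY1 to MY3 it was -5.14, -5.26 and -5.19. The MO mice were above all WO and MY mice. The mean difference was 0.66 for WO vs. MO and 0.75 for MY vs. MO, and 2.18 and 2.14 with log2(FPKM + 0.1), since the added 1 compresses *Cd200r1*.

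*Sirpa* minus *Cd47* was 1.88, 2.12, 2.47, 1.98 and 2.03 in MO1 to MO5 and 1.38, 1.21, 0.99, 1.10 and 1.15 in WO1 to WO5. It was 1.11, 1.18 and 1.24 in MY1 to MY3. The MO mice were above all WO and MY mice, which overlapped each other, and WY1, whose *Cd47* was low, was at 1.74 against 0.98 and 1.12 in WY2 and WY3. The mean difference was 0.93 from WO to MO and 0.92 from MY to MO. Exact permutation tests were run on these 4 differences, but their p-values are not given, because the separation of the groups already follows from the levels of the receptors and ligands above. Most of the difference for *Cd200r1* came from the receptor, since *Cd200* moved by -0.0019, while for *Sirpa* the 0.30 by which *Cd47* was lower added to a rise of 0.63. Within batch 1 the 4 differences were 0.68, 0.84, 0.97 and 0.98.

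Microglia can express receptors of this kind, and microglia markers rose in the same mice. Of 10 markers, 8 rose from WO to MO and 0 fell, with *P2ry12* (0.10, FDR 0.623) and *Tmem119* (0.49, FDR 0.00298) the 2 not called. *Itgax* was below 0 in WO4 and WO5.

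The level of each member minus the mean log2 level of these 10 markers was therefore taken in each mouse, as a description. The marker mean was 3.11 ± 0.20 (SD, n = 5) in WO and 4.62 ± 0.27 (SD, n = 5) in MO. From WO to MO the relative level moved by -0.33 for *Cd33*, 0.04 for *Cd22*, -0.45 for *Siglec1*, -0.86 for *Cd200r1*, -0.89 for *Sirpa*, -0.46 for *Lair1* and -0.73 for *Pirb*. For *Cd200* and *Cd47* it moved by -1.52 and -1.82. In 7 of the 9 every MO mouse was below every WO mouse, as in 97.5% of all genes, and for *Cd33* and *Cd22* the groups overlapped. Since the markers rose, a gene that did not change moves down on this measure, and the median over all genes was -1.52.

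These relative levels depended on the scale and on the markers. With log2(FPKM + 0.1) for members and markers, the sign turned for *Siglec1* (1.27), *Cd200r1* (0.32) and *Pirb* (0.07), and *Cd22* was at 1.91. For *Cd22* and *Siglec1* every MO mouse was then above every WO mouse, as in 0.55% of all genes. On this scale 98.6% of all genes were negative. With the median of the markers in place of the mean, *Cd33* was at 0.04 and *Cd22* at 0.41, and 3 members (*Cd200*, *Sirpa* and *Cd47*) had all MO mice below all WO mice, as had 92.1% of all genes. With the 5 microglia markers that the study used, which it had applied to these samples, all 9 values were negative, as were 99.6% of those of all genes. *Cd200*, *Sirpa*, *Cd47* and *Lair1* were lower relative to the markers in all 4 versions, by 0.09 in the case of *Lair1* with the median. Whether a microglial cell held more or less RNA of a receptor was not tested.

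**Figure D3:**
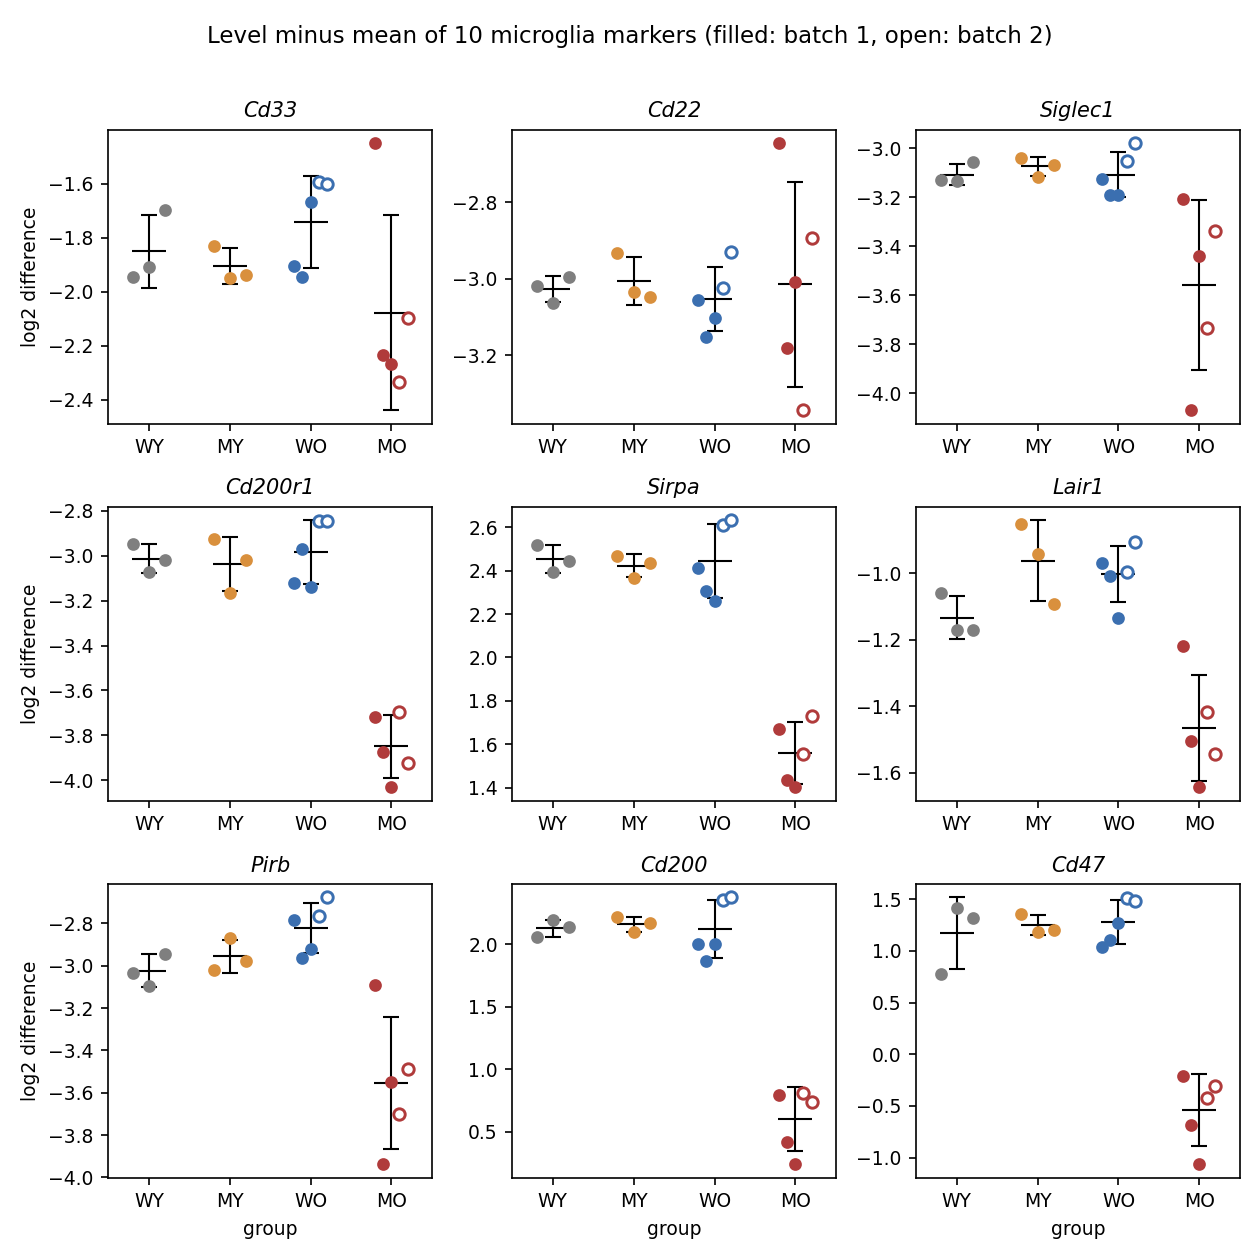
Level of each gene minus the mean log2(1 + FPKM) of 10 microglia markers in the same mouse, by group, with filled points for batch 1, open points for batch 2, long bars for means and whiskers for 1 SD. The MO mice overlap the WO mice for *Cd33* and *Cd22* and lie below them for the 7 other genes, as they do for 97.5% of all genes because the markers rose. With log2(FPKM + 0.1) the direction turns for *Siglec1*, *Cd200r1* and *Pirb*.

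Other genes around these receptors were described by lists, without a test of the list. Over all lists 92 genes were measured, of which 33 rose from WO to MO and 0 fell, with a median fold change of 0.11 beside 0.00035 for all genes. From MY to MO the counts were 33 and 0, and from WY to WO and from WY to MY 0 genes were called by limma, with 7 at an unadjusted p under 0.05 in each. Of all 18167 genes 0.253% were called from WY to WO and 0.0055% from WY to MY, so 0 calls in these lists is near those shares. An unadjusted p under 0.05 in limma was reached by 2447 and 1301 of all genes.

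Of the other siglecs, 1 of 5 measured rose. *Siglecf* rose by 1.28 (FDR 8.12e-05), while *Siglece*, an ITIM-bearing siglec of myeloid cells, was at 0.06 (FDR 0.501) and *Siglecg*, a B cell siglec, at -0.01 (FDR 0.817). *Siglech* was higher by 0.26 (FDR 0.0479) and *Mag*, the siglec of myelin, was at -0.33 (FDR 0.143), and neither was called. From MY to MO *Mag* was at -0.59 (FDR 0.0548), close to the threshold, and it passed as lower in several alternatives, among them batch 1 alone, quantile normalization and all 4 groups in 1 fit.

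Among relatives of *Cd200r1*, *Cd200r4*, an activating form, rose by 1.30 (FDR 0.000349) and *Cd200r2* was at 0.10 (FDR 0.097). *Cd200r4* was at or below 0 in 2 mice. Among relatives of *Pirb*, 2 of 4 measured rose: *Lilrb4a*, an inhibitory receptor, by 3.22 (FDR 2.33e-05) and *Lilr4b* by 1.31 (FDR 0.000321). *Pira2* (0.12, FDR 0.0145) and *Lilra5* (0.21, FDR 0.00131) were under the fold minimum. As neighbours in sequence, these genes may share reads with each other and with *Pirb*. The 4 listed relatives of *Sirpa* were not analysed here.

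Of 17 other inhibitory receptors 9 rose and 0 fell from WO to MO, with a list median of 0.78. *Fcgr2b*, the inhibitory Fc receptor, rose by 2.98 (SE 0.25, FDR 2.48e-05), *Lag3* by 2.16 (FDR 1.46e-05) and *Pdcd1*, which encodes PD-1, by 1.43 (FDR 0.000147). *4632428N05Rik*, which encodes VISTA, rose by 0.88 (FDR 2.34e-05). *Pecam1*, a gene of endothelium as well as of leukocytes, was lower by -0.50 (FDR 0.000615), under the fold minimum.

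The enzymes and adaptors listed as effectors of inhibitory receptors were split. *Ptpn6* (SHP-1) rose by 1.67 (FDR 3.65e-05) and *Inpp5d* (SHIP-1) by 1.203 (FDR 7.38e-05), whereas *Ptpn11* (SHP-2), which most cells express, was at 0.11 (FDR 0.308). Of the 8 genes on that list 3 rose, the other being *Dok1* (0.88, FDR 2.16e-05), a DOK adaptor. The DOK adaptor gene *Dok2* was at 0.08 (FDR 0.400) and was not called. *Csk* (-0.07, FDR 0.317) and *Rasa1* (0.04, FDR 0.657) were not called. On the activating side all 9 listed ITAM adaptors and kinases rose, with a median of 1.15, among them *Tyrobp* by 2.69 (FDR 0.000169), *Fcer1g* by 2.29 (FDR 5.92e-05), *Lyn* by 1.21 (FDR 3.69e-05) and *Plcg2* by 0.87 (FDR 0.000108).

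Genes that make or remove sialic acid, the sugar that siglecs bind, were not called. Of 4 synthesis genes, 19 sialyltransferases and 4 sialidases, 0 rose and 0 fell in limma from WO to MO or from MY to MO. Of all genes, 4.08% rose and 0.517% fell from WO to MO, and 4.11% and 0.787% from MY to MO. In lists this short, 0 calls is near those shares. At an unadjusted p under 0.05, from WO to MO, 1 synthesis gene was lower, 2 sialyltransferases were higher and 7 lower, and 1 sialidase was lower. *Gne*, which encodes the enzyme that starts the synthesis, was at -0.19 (FDR 0.00843), *St3gal5* at -0.26 (FDR 0.00589) and *Neu3* at -0.22 (FDR 0.0318). The lowest fold change in these lists was that of *St8sia1* (-0.38, FDR 0.000116), also under the fold minimum. In the other direction, *St8sia6* was higher by 0.51 (FDR 0.000692), under the fold minimum, with every MO mouse above all others. The others named by rule were not called: *Nans* 0.06 (FDR 0.476), *Cmas* -0.04 (FDR 0.753), *Slc35a1* -0.06 (FDR 0.454), *St3gal2* -0.14 (FDR 0.0521), *St3gal3* 0.08 (FDR 0.411) and *St6galnac6* 0.02 (FDR 0.783). Among the sialidases *Neu1* was at 0.05 (FDR 0.391), *Neu2* at 0.11 (FDR 0.379) and *Neu4* at 0.12 (FDR 0.279).

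Ligands of the other receptors fell into groups. Of 6 PIR-B ligands the 3 of MHC class I rose, *B2m* by 1.48 (FDR 0.000133), *H2-K1* by 1.49 (FDR 2.89e-05) and *H2-D1* by 1.19 (FDR 8.96e-05). The 3 myelin-related ligands did not pass, with *Rtn4* (Nogo) at 0.20 (FDR 0.0717), *Mag* as above and *Omg* at -0.25 (FDR 0.0502). Of 8 LAIR-1 ligands the 3 C1q chains rose, *C1qa* by 2.82, *C1qb* by 2.59 and *C1qc* by 2.60 (FDR 2.16e-05 for each), and 0 of the 5 collagen genes was called, *Col4a2* being at -0.31 (FDR 0.0944). *Thbs2*, which encodes a thrombospondin that binds CD47, rose by 1.12 (FDR 2.16e-05), and *Calr* (-0.08, FDR 0.736) and *Lrp1* (0.17, FDR 0.169) were not called.

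The fractalkine pair is another neuron to microglia signal. The receptor gene *Cx3cr1* rose by 1.14 (FDR 9.98e-05) and the ligand gene *Cx3cl1* was at -0.29 (FDR 0.0262), under the fold minimum.

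Markers of other cells were set beside the receptors. Of 5 monocyte markers 1 rose (*Fn1*, by 0.76, FDR 0.0278), their summed FPKM was 5.74 ± 2.24 (SD, n = 5) in WO and 9.88 ± 1.69 in MO with *Fn1* the most abundant, *Ccr2* had group means between 0.02 and 0.10, and *Plac8* was at or below 0 in 1 mouse. Of 6 T cell markers 0 were called in limma (3 higher at an unadjusted p under 0.05), with a summed FPKM of 0.445 ± 0.103 in WO and 1.00 ± 0.187 in MO (SD, n = 5), *Lck* the most abundant and *Cd3g* and *Cd8a* at or below 0 in 2 mice and 1 mouse. Of 5 neutrophil markers (*S100a9* the most abundant, *Ngp* at or below 0 in 1 mouse) and 5 dendritic cell markers (*Flt3* the most abundant), 0 were called, with 1 lower in the former and 1 higher and 2 lower in the latter at an unadjusted p under 0.05. Neutrophil markers summed to 12.6 ± 13.8 (SD, n = 5) in WO and 4.53 ± 3.54 in MO, and WO2 alone was at 37.0. Of 6 astrocyte markers 3 rose and 0 fell from WO to MO, led by *Gfap* (1.60), and their summed FPKM was 1265.4 ± 92.0 in WO and 2938.2 ± 369.9 in MO (SD, n = 5). The part of these cells in the rise of the receptors was not tested.

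The genes whose levels were most like each member over the 16 mice were found by Pearson's r. These coefficients describe the same mice that set MO apart, and 572 to 887 genes had an r above 0.9 with a given receptor. *Cd22* was most like *Gpnmb* (r = 0.998), *Csf2rb* (0.997) and *Cybb* (0.996), *Cd33* most like *Postn* (0.987), *Naip5* (0.986) and *Il10ra* (0.986), and *Siglec1* most like *C920009B18Rik* (0.990), *Lilr4b* (0.986) and *Tgm1* (0.986). *Cd200r1* was most like *Ly86* (0.980), *Cd300lb* (0.979) and *Traf3ip3* (0.979), and *Sirpa* most like *Ctsa* (0.988), *Unc93b1* (0.988) and *Csf1* (0.987). *Lair1* was most like *Cd48* (0.991), *Csf3r* (0.988) and *Ptprc* (0.988), and genes like *Pirb* included *Adcy7* (0.977) and *Nfatc1* (0.976). With Spearman's rho in place of r, at most 1 of the 3 genes was shared for any member.

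The ligands had other companions. *Cd47* was most like *Prkacb* (r = 0.963), *Thsd7a* (0.957) and *Rab11fip4* (0.955), with 215 genes above 0.9, and *Cd200* was most like *Iars* (0.872), *Prkcq* (0.868) and *Exoc3* (0.868), with 0 genes above 0.9. Among the 21 pairs of receptors r ran from 0.87 to 0.98 (median 0.95) over the 16 mice, and from 0.12 to 0.90 (median 0.57) once each group's mean had been removed. The pair of *Siglec1* and *Pirb* had the highest of the latter (0.90) and that of *Cd33* and *Cd200r1* the lowest (0.12).

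The 9 genes lie on 3 chromosomes (GENCODE M21, GRCm38, which is mm10). Chromosome 7 holds *Pirb* (chr7:3711409-3720391), *Lair1* (chr7:4003402-4063204), *Cd22* (chr7:30865402-30880342) and *Cd33* (chr7:43524216-43544428), all on the minus strand. Chromosome 2 holds *Sirpa* (chr2:129592835-129632228, plus strand) and *Siglec1* (chr2:131069220-131086765, minus strand). Chromosome 16 holds *Cd200r1* (chr16:44765736-44794978, plus strand), its ligand *Cd200* (chr16:45382135-45409053, minus strand) and *Cd47* (chr16:49800533-49915010, plus strand). All 9 are annotated as protein-coding. The 4 members on chromosome 7 and the 2 on chromosome 2 all rose from WO to MO. On chromosome 16 *Cd200r1* rose, and *Cd200* and *Cd47* did not. Whether position had a part in this was not tested.

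Since the receptors moved together, the 250 bases before the RefSeq start of each gene were searched for GAGGAA on both strands (TTCCTC on the other), the core letters bound by the myeloid factor PU.1. The search was chosen after the values were seen. RefSeq windows (GRCm38.p6) were at hand for 6 of the 9 members, and 3 of these held the letters (*Pirb*, *Lair1* and *Cd33*), while *Cd22*, *Cd200* and *Cd47* did not. Of all 32851 windows 23.3% held them, as did 26.01% of the 13509 genes of the table with a window. The *Pirb* and *Lair1* matches lay outside any gene annotated in GENCODE M21. The *Cd33* match (chr7:43533382-43533407, minus strand) lay in an exon of 1 annotated *Cd33* transcript that starts further upstream, so its bases are not printed. The other 4 matches are shown with 10 bases on each side, 5′ to 3′ on the minus strand, to let the letters be read in their context, with the match in capitals. A match describes these letters only and is not a binding site shown by these data. The positions, in the order printed, are chr7:3720552-3720577, chr7:3720487-3720512, chr7:3720454-3720479 and chr7:4063215-4063240.
Pirb, 185 bases before the start: ctggtgggatGAGGAAacgccatctg
Pirb, 120 bases before the start: tcacaccattGAGGAAgtcagagcat
Pirb, 87 bases before the start: aggagggcagTTCCTCtttctgtggg
Lair1, 26 bases before the start: gagaaacctcTTCCTCtccatgtggg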

How the data were processed

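Polyadenylated RNA of 16 spinal cords was sequenced by the authors with a stranded kit. The log2 values were used as deposited: the authors used Trimmomatic for cleaning, TopHat for alignment to mm10 and Cufflinks for FPKM per gene, dropped genes at 0 in 8 or more mice, took log2 after adding 1 and applied ComBat to the 2 batches. Versions, the gene annotation and ComBat's covariates are not given in the sources used here. The table holds 915 values below 0, none exactly 0, and 0 unused columns. Depth per gene is unknown. For sums and for log2(FPKM + 0.1), values were taken back to FPKM with values below 0 set to 0.

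Each pair of groups was fitted with limma 3.58.1 (lmFit and eBayes, two-sided, R 4.3.3) on all 18167 genes with Benjamini-Hochberg adjustment, and the age effect on all 16 mice in 1 fit. The fits of pairs of groups were tested on simulated data. Python 3.11.15, NumPy 2.4.6, pandas 2.3.3, SciPy 1.17.1 and matplotlib 3.10.9 served for the rest. Positions came from GENCODE M21.

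Named genes were the 9 members, all measured genes of a pathway list of 6 or fewer (otherwise the 4 most abundant and the 3 called genes with the largest fold change from WO to MO), the 3 genes most like each member by Pearson's r, the marker with the highest mean log2 level of most cell types described and any marker at or below 0, and *Xist*, *Ddx3y*, *Prnp* and *Pfn1*. Other genes named (markers that were called or missed, *Ccr2*, *Pax5*, *Emx1*, *Cd79a*, *Cr2*, *Tbr1*, *Neurod6*, *Syt1*, *Stmn2*, *Dok2*, *St8sia1*, *St8sia6*) were chosen after their values were seen. The results of 3 genes are not reported here. The members and lists were chosen with earlier results of these data known. A planned search for ITIMs in protein sequences was not made, since no protein table was used here. Alternatives were the mice of 1 batch, batch as a term, genes with a mean of at least 1, log2(FPKM + 0.1), quantile normalization, an intensity trend, treat against a fold change of 1.2, all 4 groups in 1 fit, a replicate block and each mouse left out.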

Additional observations from a re-analysis of the deposited data

Results flagged for a closer look

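In 18 groups of 5 mice (9 genes in WO and in MO) the gap between the outermost mouse and its neighbour was compared with the range of the group, and 2 exceeded the ratio of 0.710. *Cd33* in WO3 was at 1.587, above the other WO mice, and *Cd200* in MO1 was at 5.166, below the other MO mice. Chance gives about 1 such mouse in 20 groups.

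The effect of age differed between mutant and wild-type mice for 7 genes, in a limma test of that difference over 16 mice. The age effect in mutants exceeded that in wild-type mice by 1.26 for *Cd33*, 1.558 for *Cd22*, 1.056 for *Siglec1*, 0.6995 for *Cd200r1*, 0.6834 for *Sirpa*, 0.9046 for *Lair1* and 0.741 for *Pirb* on the log2 scale.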

How the results depend on the processing

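The receptors were higher in MO in every alternative run. The number that rose changed with filters and thresholds. With only genes of a mean of at least 1, 3 members rose in WO vs. MO, 3 in MY vs. MO and 3 passed in the test of the age effect, because *Cd22*, *Siglec1*, *Cd200r1* and *Pirb* were removed and 5 members were tested. Of the 13530 genes kept, 602 and 614 rose and 693 were higher in the age effect, in the same order. With treat 4 members rose in MY vs. MO, where *Siglec1* (FDR 0.0515), *Sirpa* (FDR 0.0663) and *Pirb* (FDR 0.0607) missed the threshold. *Pirb* also missed it in the difference of the age effect (FDR 0.203). Of all 18167 genes, 640 rose with treat in MY vs. MO and 563 were higher in the difference of the age effect. With each mouse left out, 6 to 7 members rose in WO vs. MO and in MY vs. MO and 7 passed in the difference of the age effect. Of all 18167 genes, 702 to 795 then rose in WO vs. MO and 689 to 811 in MY vs. MO, and 730 to 926 were higher in the age effect.

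Values near 0 changed sign. *Cd200* in WO vs. MO was at 0.0018 within batch 1 and ran from -0.0196 to 0.0130 with each mouse left out. *Cd22* in WY vs. MY was at 0.0014 after quantile normalization. With each mouse left out, WY vs. WO ran from -0.0341 to 0.0753 for *Cd33* and from -0.17 to 0.16 for *Cd47*. WY vs. MY ran from -0.0191 to 0.0230 for *Cd22*, from -0.00083 to 0.0217 for *Siglec1*, from -0.0189 to 0.0586 for *Cd200*, from -0.14 to 0.19 for *Cd47* and from -0.0299 to 0.11 for *Pirb*. The age effect of *Cd200* ran from -0.0605 to 0.0170.

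Levels relative to microglia markers, MO minus WO, moved with the markers and the scale. With the study's 5 markers they were -0.84 (*Cd33*), -0.46 (*Cd22*), -0.95 (*Siglec1*), -2.02 (*Cd200*), -1.36 (*Cd200r1*), -1.39 (*Sirpa*), -2.32 (*Cd47*), -0.96 (*Lair1*) and -1.23 (*Pirb*). With the median of 10 markers they were 0.0364, 0.41, -0.0790, -1.15, -0.49, -0.51, -1.45, -0.0921 and -0.36 in the same order. With log2(FPKM + 0.1), chosen after seeing the data, those that moved or turned were *Cd22* (1.91), *Siglec1* (1.27), *Cd200* (-1.86), *Cd200r1* (0.32), *Sirpa* (-1.21), *Cd47* (-2.17) and *Pirb* (0.0737). A smaller constant widens differences of low genes by construction. Without MO1 *Cd22* was at -0.0533, and at most 0.12 without another mouse (MO4). Other causes were not tested.

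Receptor minus ligand, with alternatives also chosen after seeing the data, gave 0.68 and 0.84 (*Cd200r1*) and 0.97 and 0.98 (*Sirpa*) within batch 1 in WO vs. MO and MY vs. MO. With log2(FPKM + 0.1) *Cd200r1* minus *Cd200* was 2.18 in WO vs. MO and 2.14 in MY vs. MO. With each mouse left out MY vs. MO ran from 0.70 to 0.80 and from 0.83 to 0.98.

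With the replicate block, 7 members rose in WO vs. MO and 7 in MY vs. MO, and 0 passed in WY vs. WO and 0 in WY vs. MY. In the difference of the age effect 7 passed, so no call of a member changed. Of all 18167 genes, 742 and 850 rose, 63 and 1 were called, and 836 were higher in the difference of the age effect, in the same order. Same-numbered mice deviated from their group means with an r of -0.21 to 0.09 in WO vs. MO, 0.09 to 0.18 in MY vs. MO, -0.13 to 0.38 in WY vs. WO and -0.20 to -0.02 in WY vs. MY. These low values show no clear pairing by number, but so few of them cannot settle whether the mice were paired. WY and MY mice are all of batch 1, so no batch alternative could be fitted there.

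Quantile normalization lowered the share of called genes that were higher from 88.8% to 82.8% in WO vs. MO, from 83.9% to 76.3% in MY vs. MO and from 82.8% to 72.1% in the age effect. The genes most like each member shared 0 or 1 of 3 between Pearson and Spearman. Depth behind low genes such as *Cd22* and *Siglec1* is unknown, and WO4 and WO5 are older than every MO mouse, so age and genotype cannot be told apart for batch 2.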
